A study of Mus musculus with 84 samples.

Results

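The 10 genes followed here, with established roles in adipocyte lipid storage (Lpl, Cd36, Fabp4, Cidea, Cidec, Pnpla2, Scd1, Gpd1, Adipoq and Adig), were measured across mouse mammary glands, mammary tumors, lung metastases and fat. Members were taken by symbol: every spotted cDNA clone that carried one of the 10 symbols and no other was kept, whatever its values. This gave 19 of 15360 clones on the 15k arrays, covering all 10 genes, and 6 of 8832 clones on the 8.7k arrays, covering 6 genes. Clones are named by their plate position, so Lpl 36p7 is a different piece of Lpl cDNA from Lpl 30d6.

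A white adipocyte takes up fatty acids that lipoprotein lipase frees from circulating lipoproteins, carries them in the cytosol on a fatty acid binding protein, joins them to a glycerol backbone and keeps the triglyceride in a single large droplet. Droplet proteins limit the access of lipases to this store, and the first lipase of the chain opens it when fatty acids are needed. In the mouse the mammary epithelium grows within a fat pad, so a whole virgin gland holds many adipocytes.

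Every array reported the log2 ratio of sample RNA, labelled with Cy5, to a common reference RNA, labelled with Cy3, that was pooled from ovary, liver, spleen, kidney, thymus, pancreas, lung and lactating mammary gland. The 15k arrays held 23 mammary tumors of MMTV-Wnt-1 mice aged 9 to 56 weeks (WntT), 12 tumors of MMTV-Neu mice aged 32 to 60 weeks (NeuT), 7 hyperplastic glands of MMTV-Wnt-1 mice aged 9 weeks (WntH), 3 samples of intestinal fat of virgin FVB mice aged 12 weeks (Fat), and 5 mammary glands of virgin nontransgenic FVB mice aged 9 weeks (VMG). They also held 10 lung metastases of MMTV-Wnt-1 mice (WntM), 3 of MMTV-Neu mice (NeuM), and 2 that grew in the lungs of nontransgenic mice after Neu tumor cells were injected into the tail vein. On the 8.7k arrays, 6 tumors of MMTV-Wnt-1 mice that were P53-/- and aged 9 to 14 weeks stood against 10 other MMTV-Wnt-1 tumors. The range of 9 to 56 weeks covers the Wnt-1 tumors of both array types, and no range was given for these 10 alone. Both transgenes are driven by the mouse mammary tumor virus promoter, the Neu transgene is a wild-type rat cDNA, and the MMTV-Wnt-1 mice were of mixed FVB, SJL and C57BL/6 background whereas MMTV-Neu and nontransgenic mice were FVB. The fat was not mammary fat. In these bulk samples, fewer adipocytes and less RNA of a gene per adipocyte cannot be told apart.

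Among the 65 arrays of the 15k type, 6 had a spread of log2 ratios (SD over all clones) above 1.3, whereas the median array had 0.937. These were Fat array 44 at 2.59, WntT arrays 42 and 49, and WntM arrays 19, 50 and 52, and the 5 calls of member clones that changed without them are given with their comparisons. Skeletal muscle markers moved with the glands: the mean log2 ratio of 8 muscle genes ran from -1.61 to 0.63 in Wnt-1 tumors, -1.19 to 0.45 in Neu tumors, 1.75 to 2.84 in hyperplastic glands and -0.52 to -0.24 in fat, against 2.44 to 3.26 in virgin glands. Mylpf and Tnnc2, both specific to skeletal muscle, averaged 4.28 and 4.11 in virgin glands, the highest of these genes. All 8 muscle genes were lower in Wnt-1 tumors than in virgin glands, and all but Actn3 were lower in Neu tumors. In hyperplastic glands Atp2a1 and Pvalb alone were lower, and in fat all but these were lower. The mean of 5 luminal epithelial markers ran from 0.24 to 1.19 in Wnt-1 tumors, -1.29 to -0.35 in Neu tumors, 0.47 to 1.05 in hyperplastic glands and -3.44 to -1.27 in fat, against -0.11 to 0.50 in virgin glands. These luminal genes did not move together. In Neu tumors Cdh1 and Cldn7 were higher than in virgin glands, and Krt19, Cldn4 and Muc1 lower. In Wnt-1 tumors Krt19, Cdh1 and Cldn7 were higher and Cldn4 lower, and Muc1 did not pass. In hyperplastic glands Krt19 and Cdh1 were higher and Cldn4 lower, and in fat Krt19 and Muc1 were lower. The mean of 10 markers of capillary endothelium, which also carries Cd36, ran from -1.20 to -0.53 in Wnt-1 tumors, -1.40 to -0.96 in Neu tumors, -0.64 to -0.41 in hyperplastic glands and 0.21 to 0.40 in fat, against -0.33 to 0.20 in virgin glands. Of these 10 genes, 9 fell in either kind of tumor and 5 in hyperplastic glands. Among macrophage genes, Fcgr3 and Mrc1 were lower and Ctss higher in either kind of tumor than in virgin glands. In hyperplastic glands Fcgr3 was lower and Ctss higher, and in fat Adgre1 was higher. The other macrophage genes did not pass in these comparisons. The part of muscle, epithelium, endothelium or macrophages in the values of the lipid storage clones was not tested.

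Promoter sequence was available for 5 of the 10 genes, and of their 6 promoters the 4 that held a match to a motif searched are shown, to place the matches. Those of Pnpla2 and of the upstream start of Cidec held none. Each runs from 250 bases before to 50 bases after the annotated start (RefSeq, GRCm38.p6), written along the gene's strand with motif matches in capitals.
Adig (chr2:158502362-158502661, plus strand): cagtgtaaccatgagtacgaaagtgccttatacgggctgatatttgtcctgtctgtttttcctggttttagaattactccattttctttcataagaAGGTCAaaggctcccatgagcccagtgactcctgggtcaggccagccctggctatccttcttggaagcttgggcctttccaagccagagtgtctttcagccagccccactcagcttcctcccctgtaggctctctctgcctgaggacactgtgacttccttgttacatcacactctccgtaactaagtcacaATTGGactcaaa
Cd36 (chr5:17835847-17836146, minus strand): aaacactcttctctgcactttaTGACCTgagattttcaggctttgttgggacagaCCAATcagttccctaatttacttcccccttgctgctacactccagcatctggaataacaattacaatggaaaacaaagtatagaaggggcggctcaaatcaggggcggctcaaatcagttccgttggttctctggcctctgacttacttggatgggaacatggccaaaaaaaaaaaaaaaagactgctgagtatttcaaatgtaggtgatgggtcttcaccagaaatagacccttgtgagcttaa
Cidec, downstream start (chr6:113434715-113435014, minus strand): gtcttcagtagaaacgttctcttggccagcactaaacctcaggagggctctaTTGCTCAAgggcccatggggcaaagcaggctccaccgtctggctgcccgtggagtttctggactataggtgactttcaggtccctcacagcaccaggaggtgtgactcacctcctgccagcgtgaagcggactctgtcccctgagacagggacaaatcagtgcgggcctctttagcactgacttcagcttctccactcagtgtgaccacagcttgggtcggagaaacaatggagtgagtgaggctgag
Adipoq (chr16:23146286-23146585, plus strand): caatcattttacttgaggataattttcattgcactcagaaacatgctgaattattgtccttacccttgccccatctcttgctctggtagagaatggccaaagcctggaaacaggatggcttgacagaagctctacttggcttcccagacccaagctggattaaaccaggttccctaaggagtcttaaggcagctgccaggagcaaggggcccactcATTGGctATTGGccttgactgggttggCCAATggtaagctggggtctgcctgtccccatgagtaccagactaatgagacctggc
Each of 5 motifs was searched on both strands. AGGTCA, the hexamer read by nuclear receptors such as the adipocyte regulator PPARG, was in 2 of the 5 genes (Adig and Cd36) and in 16.3% of 32851 promoters. In Adig it lies at position -154 from the start site. TTGCNNAA, the core read by C/EBP factors, was in 1 of the 5 genes (Cidec) and in 10.8% of all promoters. CCAAT was in 3 of the 5 genes, with 3 copies in Adipoq, and in 37.4% of all promoters. TCACNCCAC, a sterol response element, and TATAAA were in 0 of the 5 genes, in 1.24% and 13.6% of all promoters. A match describes letters in the window and no more.

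The first comparison asked how the lipid storage genes of tumors and of hyperplastic glands stood relative to the virgin gland. Most clones were lower in hyperplastic glands and in tumors of either oncogene than in virgin glands, and lower again in Wnt-1 tumors than in hyperplastic glands. Neu tumors were not tested against hyperplastic glands. Cd36 32o18 averaged -0.08 in Neu tumors and -0.07 in hyperplastic glands. In Wnt-1 tumors 16 of 19 clones fell and 0 rose relative to virgin glands (limma, Benjamini-Hochberg adjusted p under 0.05 over all clones), where 49.4% of all clones passed, 24.3% higher and 25.1% lower. In Neu tumors 17 of 19 fell and 0 rose, against 52.2% of all clones, 24.9% higher and 27.3% lower. In hyperplastic glands 15 of 19 fell and 0 rose, against 21.9% of all clones, 8.93% higher and 13% lower. All 10 genes had at least 1 clone that fell in each of the 3 comparisons, which share the virgin glands.

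The median member clone was at 0.0367 of the virgin gland in Wnt-1 tumors (a log2 difference of -4.77), at 0.0692 in Neu tumors (-3.85) and at 0.370 in hyperplastic glands (-1.43). The median over all clones was at 0.983, 1.00 and 0.990 in the same 3 comparisons. Wnt-1 tumors were also set directly against hyperplastic glands: 15 of 19 clones fell and 0 rose, where 41.7% of all clones passed, 20.1% higher and 21.7% lower, and the median member was at 0.172 of the hyperplastic level. For 15 of the 19 clones no array of the Wnt-1 tumors overlapped the hyperplastic glands, which was so for 7.47% of all clones. Without the arrays of SD over 1.3, Adig 39i13 was also called, as higher in Wnt-1 tumors (log2 difference 0.32, adjusted p = 0.0167). Fabp4 24d11 in hyperplastic glands lost its call under quantile normalization (log2 difference -0.27, adjusted p = 0.33).

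**Figure D1:**
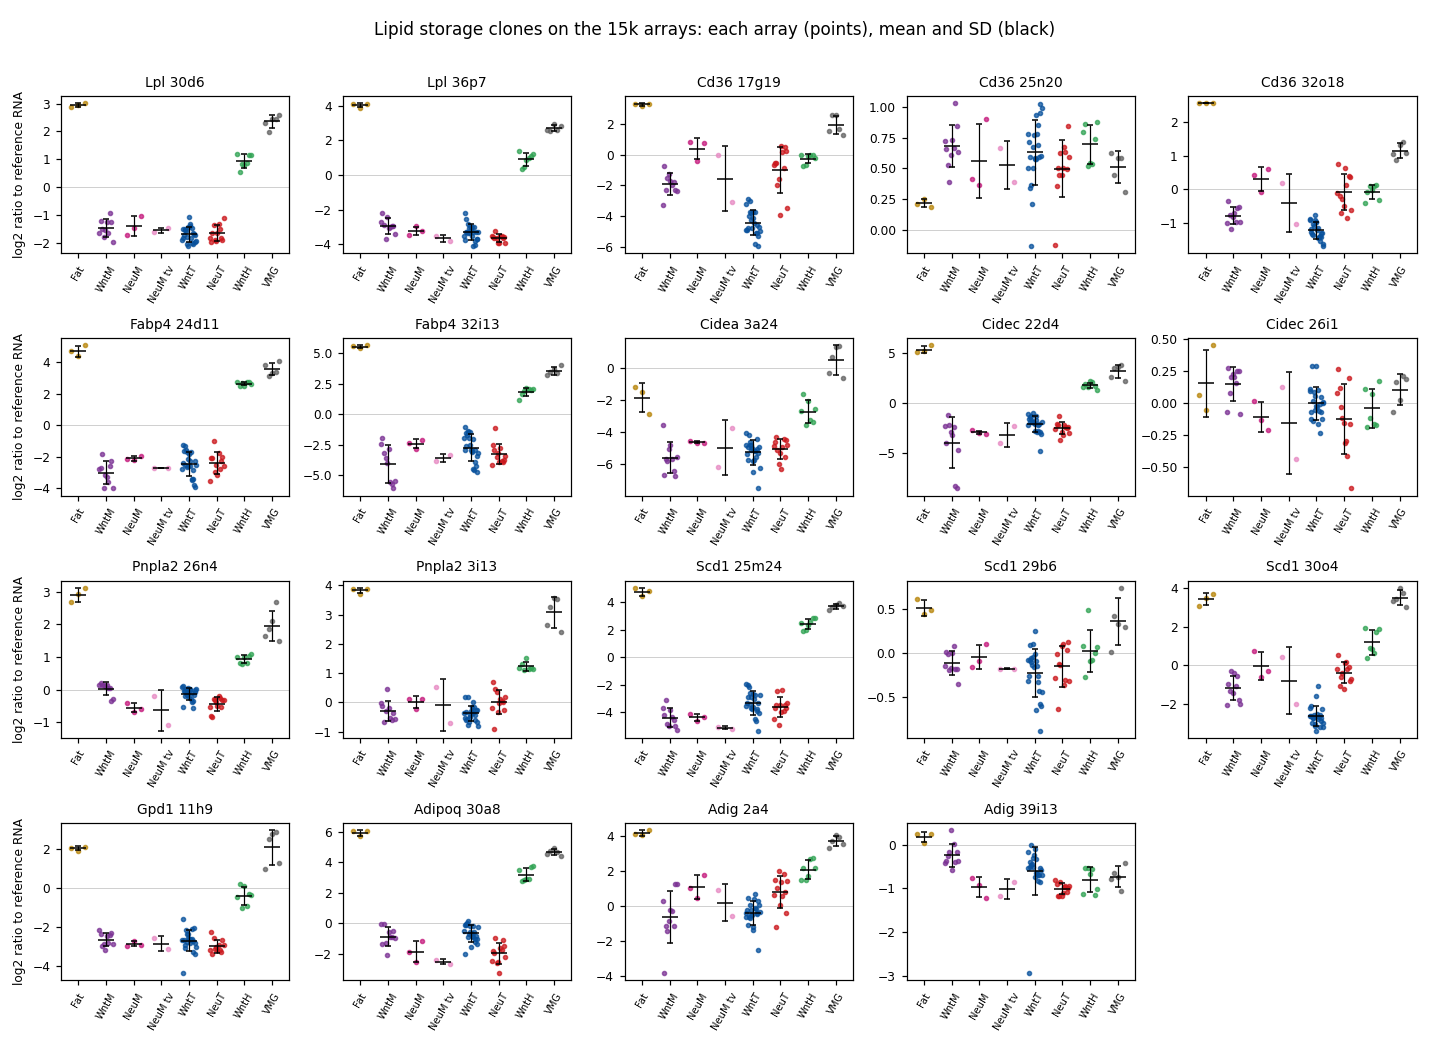
Log2 ratio to the reference RNA (vertical axis) of each of the 19 clones on the 15k arrays, with 1 point for each array, by group, each panel on its own scale, and the mean and SD in black; NeuM tv are the tail-vein metastases. In 15 panels fat has the highest mean, and virgin glands lie above hyperplastic glands and tumors except in the panels of Cd36 25n20, Cidec 26i1, Scd1 29b6 and Adig 39i13, whose vertical axes span under 4 log2 units.

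Lpl encodes lipoprotein lipase, the enzyme that frees fatty acids from circulating triglyceride. Lpl 36p7 ran from -4.10 to -2.16 (median -3.29) in Wnt-1 tumors, from -3.95 to -3.20 (median -3.59) in Neu tumors and from 0.34 to 1.36 (median 0.97) in hyperplastic glands, against 2.56, 2.58, 2.62, 2.82 and 2.95 in virgin glands. No tumor reached the lowest hyperplastic gland and no hyperplastic gland reached the lowest virgin gland. The level was 64.1-fold lower in Wnt-1 tumors (log2 difference -6.00 ± 0.20 SE, limma adjusted p = 1.04e-19), 80.6-fold lower in Neu tumors (-6.33 ± 0.11, adjusted p = 3.15e-17) and 3.49-fold lower in hyperplastic glands (-1.80 ± 0.17, adjusted p = 4.58e-05) than in virgin glands. The second clone, Lpl 30d6, followed it over the 65 arrays (Pearson r = 0.983, a description over arrays that share groups) with smaller differences, 16.7-fold lower in Wnt-1 tumors and 16.3-fold lower in Neu tumors.

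Cd36, a membrane protein that takes up long-chain fatty acids, is carried by adipocytes and also by capillary endothelium and macrophages. Cd36 17g19 ran from -5.97 to -2.91 (median -4.57) in Wnt-1 tumors, from -3.94 to 0.60 (median -0.62) in Neu tumors and from -0.72 to -0.03 (median -0.09) in hyperplastic glands, against 1.29, 1.56, 1.68, 2.59 and 2.63 in virgin glands. All tumors and hyperplastic glands lay below all virgin glands, but the Neu tumors were spread over the whole hyperplastic range and beyond. Relative to virgin glands it was 83.4-fold lower in Wnt-1 tumors (-6.38 ± 0.38, adjusted p = 2.11e-14), 7.75-fold lower in Neu tumors (-2.95 ± 0.65, adjusted p = 8.68e-04, not called by a permutation t-test modelled on the study's) and 4.60-fold lower in hyperplastic glands (-2.20 ± 0.24, adjusted p = 8.19e-05). Cd36 32o18 moved the same way with smaller differences (5.16-fold, 2.34-fold and 2.33-fold lower in the same order) and followed 17g19 over the arrays at r = 0.911.

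The third Cd36 clone, 25n20, did not follow them. Its 65 values spanned 1.16 log2 units, its correlation with 17g19 was -0.322, and its difference from virgin glands was 0.12 ± 0.12 in Wnt-1 tumors (adjusted p = 0.449). Flat clones of this kind stood beside a moving clone in 3 further genes, as given below. Which transcript each clone detects was not tested.

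Fabp4 encodes the fatty acid binding protein of the adipocyte cytosol. Fabp4 32i13 ran from -4.74 to -1.06 (median -2.89) in Wnt-1 tumors, from -4.17 to -1.16 (median -3.44) in Neu tumors and from 1.18 to 2.12 (median 1.95) in hyperplastic glands, against 3.21, 3.38, 3.45, 3.69 and 3.99 in virgin glands. The tumors of either oncogene lay more than 2 log2 units below the lowest hyperplastic gland, and hyperplastic and virgin glands did not overlap. It was 77.9-fold lower in Wnt-1 tumors (-6.28 ± 0.49, adjusted p = 7.66e-12), 110.4-fold lower in Neu tumors (-6.79 ± 0.36, adjusted p = 2.90e-11) and 3.26-fold lower in hyperplastic glands (-1.70 ± 0.18, adjusted p = 6.75e-05) than in virgin glands. Fabp4 24d11 differed by 65.5-fold in Wnt-1 tumors and 62.6-fold in Neu tumors, but by 1.89-fold in hyperplastic glands.

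Scd1 encodes stearoyl-CoA desaturase, which makes the monounsaturated fatty acids that are packed into triglyceride. Scd1 25m24 had the largest difference between tumors and virgin glands among the 19 clones, for either oncogene. It ran from -5.33 to -1.96 (median -3.33) in Wnt-1 tumors, from -4.93 to -2.38 (median -3.58) in Neu tumors and from 1.89 to 2.87 (median 2.49) in hyperplastic glands, against 3.41, 3.62, 3.73, 3.75 and 3.96 in virgin glands. Every tumor lay more than 3 log2 units below every hyperplastic gland. The level was 129.4-fold lower in Wnt-1 tumors (-7.02 ± 0.37, adjusted p = 1.39e-15) and 157.2-fold lower in Neu tumors (-7.30 ± 0.31, adjusted p = 1.38e-12), against 2.41-fold lower in hyperplastic glands (-1.27 ± 0.17, adjusted p = 3.09e-04).

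A second Scd1 clone, 30o4, differed between Wnt-1 and Neu tumors. It ran from -3.36 to -1.04 (median -2.70) in Wnt-1 tumors, from -1.23 to 0.52 (median -0.28) in Neu tumors and from 0.37 to 1.94 (median 0.92) in hyperplastic glands, against 3.02, 3.30, 3.39, 3.71 and 4.0 in virgin glands. Neu tumors reached into the hyperplastic range and Wnt-1 tumors did not. It was 68.4-fold lower in Wnt-1 tumors and 14.5-fold lower in Neu tumors than in virgin glands. The third clone, 29b6, spanned 1.62 log2 units in all and was 1.5-fold lower in Wnt-1 tumors (adjusted p = 5.25e-04) and 1.42-fold lower in Neu tumors (adjusted p = 0.0030), where the permutation t-test did not call it. The mouse has several stearoyl-CoA desaturase genes of similar sequence, and hybridization of their transcripts to these clones was not tested.

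Gpd1 encodes the cytosolic glycerol-3-phosphate dehydrogenase that supplies the glycerol backbone of triglyceride. Its clone 11h9 ran from -4.33 to -1.57 (median -2.65) in Wnt-1 tumors, from -3.39 to -2.22 (median -3.06) in Neu tumors and from -1.0 to 0.19 (median -0.35) in hyperplastic glands, against 0.97, 1.29, 2.51, 2.74 and 2.87 in virgin glands. The groups of glands did not overlap, although virgin glands 17 and 13 sat more than 1 log2 unit below the other 3. Gpd1 was 27.2-fold lower in Wnt-1 tumors (-4.77 ± 0.29, adjusted p = 3.36e-14), 32.9-fold lower in Neu tumors (-5.04 ± 0.27, adjusted p = 3.27e-11) and 5.53-fold lower in hyperplastic glands (-2.47 ± 0.34, adjusted p = 2.97e-04).

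Cidea and Cidec encode droplet proteins that help lipid droplets to fuse and enlarge. In the mouse Cidea is known from brown fat and from the mammary epithelium that secretes milk fat, and Cidec from white fat. Cidea 3a24 ran from -7.53 to -4.06 (median -5.10) in Wnt-1 tumors, from -6.32 to -4.32 (median -4.90) in Neu tumors and from -3.54 to -1.62 (median -2.71) in hyperplastic glands, against -0.62, -0.28, 0.71, 1.35 and 1.38 in virgin glands. It had the largest difference of any member in hyperplastic glands, 9.39-fold (-3.23 ± 0.41, adjusted p = 1.89e-04), and was 54.7-fold lower in Wnt-1 tumors and 47.7-fold lower in Neu tumors.

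Cidea was also the member with a lower mean in fat than in virgin glands by over 1 log2 unit. The 3 fat arrays gave -2.90, -1.51 and -1.20, all below the 5 virgin glands. The log2 difference of -2.38 ± 0.60 missed the threshold (adjusted p = 0.0513). It passed under 4 alternatives, with an adjusted p of 0.0013 when the spread was estimated over all groups and 0.0304 with extreme ratios set missing, and passed without virgin gland 13 (adjusted p = 0.0428). Besides Cidea, Ucp1 was the one brown adipocyte marker measured, and it averaged -0.04 in fat and 0.28 in virgin glands, near the level of the reference RNA.

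Cidec 22d4 ran from -4.82 to -1.04 (median -1.92) in Wnt-1 tumors, from -3.67 to -1.29 (median -2.47) in Neu tumors and from 1.35 to 2.18 (median 1.68) in hyperplastic glands, against 2.25, 2.64, 3.53, 3.65 and 3.81 in virgin glands. Hyperplastic and virgin glands were next to each other without overlap, and the tumors stood apart from both. It was 39.5-fold lower in Wnt-1 tumors (-5.31 ± 0.39, adjusted p = 1.73e-12), 52.9-fold lower in Neu tumors (-5.73 ± 0.31, adjusted p = 4.74e-11) and 2.65-fold lower in hyperplastic glands (-1.41 ± 0.26, adjusted p = 0.0016). With the spread estimated over all groups, the last call was lost (adjusted p = 0.179). Cidec 26i1 spanned 1.12 log2 units over the 65 arrays and passed the test in none of these 3 comparisons.

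Pnpla2 encodes adipose triglyceride lipase, which removes the first fatty acid from stored triglyceride. Pnpla2 3i13 ran from -0.79 to 0.19 (median -0.37) in Wnt-1 tumors, from -0.92 to 0.71 (median 0.02) in Neu tumors and from 1.11 to 1.53 (median 1.18) in hyperplastic glands, against 2.39, 2.65, 3.27, 3.52 and 3.58 in virgin glands. The tumors sat around the level of the reference RNA, below all hyperplastic glands. The clone was 11-fold lower in Wnt-1 tumors (-3.46 ± 0.16, adjusted p = 6.01e-17), 8.38-fold lower in Neu tumors (-3.07 ± 0.23, adjusted p = 2.43e-09) and 3.62-fold lower in hyperplastic glands (-1.85 ± 0.19, adjusted p = 6.75e-05). Pnpla2 26n4 was 4.23-fold, 5.23-fold and 2.02-fold lower in the same order.

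Adipoq encodes adiponectin, the hormone that adipocytes secrete. Its clone 30a8 ran from -2.0 to 0.16 (median -0.59) in Wnt-1 tumors, from -3.23 to -0.92 (median -1.86) in Neu tumors and from 2.75 to 3.73 (median 2.90) in hyperplastic glands, against 4.38, 4.56, 4.69, 4.70 and 4.96 in virgin glands. The gap between tumors and hyperplastic glands exceeded 2 log2 units. Adipoq was 39.4-fold lower in Wnt-1 tumors (-5.30 ± 0.24, adjusted p = 8.60e-17), 97.9-fold lower in Neu tumors (-6.61 ± 0.29, adjusted p = 2.10e-12) and 2.78-fold lower in hyperplastic glands (-1.48 ± 0.19, adjusted p = 2.36e-04).

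Adig encodes adipogenin, a small membrane protein of adipocytes with a part in droplet formation. Adig 2a4 ran from -2.52 to 0.70 (median -0.43) in Wnt-1 tumors, from -1.19 to 1.99 (median 0.90) in Neu tumors and from 1.49 to 2.76 (median 2.17) in hyperplastic glands, against 3.30, 3.54, 3.69, 3.96 and 4.03 in virgin glands. Neu tumors overlapped the hyperplastic glands here. The clone was 17.5-fold lower in Wnt-1 tumors (-4.13 ± 0.31, adjusted p = 2.74e-12), 7.54-fold lower in Neu tumors (-2.92 ± 0.40, adjusted p = 7.55e-06) and 3.11-fold lower in hyperplastic glands (-1.64 ± 0.24, adjusted p = 4.34e-04). Adig 39i13 did not track it over the 65 arrays (r = -0.0236), and its difference of -0.28 ± 0.10 in Neu tumors passed the test (adjusted p = 0.0237) but not under quantile normalization (-0.03, adjusted p = 0.833), nor by the permutation t-test, nor without virgin gland 13 (adjusted p = 0.0954) or 27 (adjusted p = 0.0591).

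**Figure D2:**
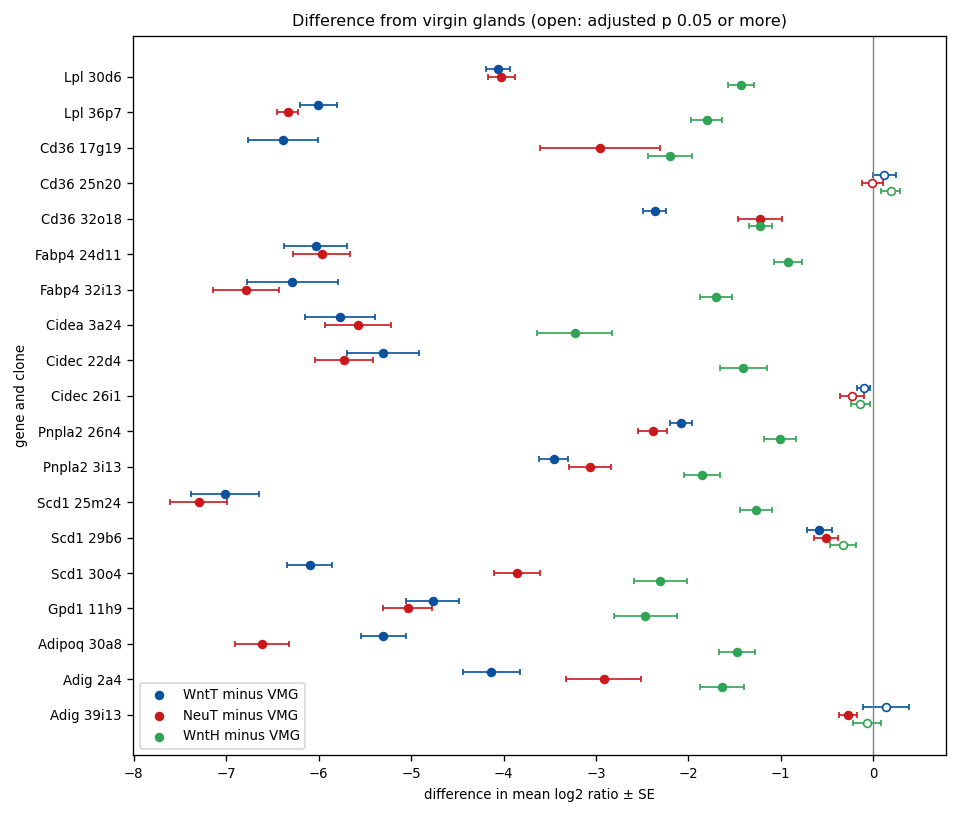
Difference in mean log2 ratio from virgin glands (horizontal axis, ± SE) for each clone in Wnt-1 tumors (23 arrays), Neu tumors (12) and hyperplastic glands (7), each against the same 5 virgin glands; filled points passed limma's adjusted p of 0.05. The hyperplastic points lie between 0 and the tumor points for every clone that fell in all 3 groups, and the clones Cd36 25n20, Cidec 26i1, Scd1 29b6 and Adig 39i13 stay within 1 log2 unit of 0.

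Intestinal fat served as a tissue made up largely of white adipocytes. In fat 8 of 19 clones rose and 0 fell relative to virgin glands, where 9.09% of all clones passed, 5.31% higher and 3.78% lower. Among the clones that rose, the largest difference was in Cidec 22d4, at 5.08, 5.25 and 5.79 in the fat arrays (4.60-fold higher, 2.20 ± 0.40, adjusted p = 0.0196). Fabp4 32i13 followed with 5.44, 5.54 and 5.62 (3.98-fold higher, 1.99 ± 0.19, adjusted p = 0.0025). For both clones the 3 fat arrays lay above all 5 virgin glands.

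Cd36 32o18 was 2.65-fold, Lpl 36p7 2.48-fold, Adipoq 30a8 2.37-fold and Scd1 25m24 2.05-fold higher in fat, with adjusted p from 0.0030 to 0.0169. Gpd1 11h9 was at 1.90, 2.06 and 2.11 in fat, inside the range of the virgin glands, with a difference of -0.05 and a 95% interval from -1.16 to 1.06. Scd1 30o4 likewise differed by -0.08, with an interval from -0.66 to 0.50. The count of 8 was the same without Fat array 44 and was 4 without Fat array 45, when Cidec 22d4, Fabp4 24d11, Scd1 25m24 and Adig 39i13 lost their calls. Fabp4 24d11 also lost its call without any 1 of virgin glands 17, 27, 28 and 29 (adjusted p from 0.0667 to 0.0916), and without virgin gland 13 the count was 10. Against the 35 tumors of both oncogenes, 17 of 19 clones were higher in fat and 1 (Cd36 25n20) was lower, where 53.3% of all clones passed, 21.8% higher and 31.6% lower. The call of Cd36 25n20 (-0.37, adjusted p = 0.0437) was lost without any 1 of the 3 fat arrays (adjusted p from 0.0905 to 0.148), without the arrays of SD over 1.3 (adjusted p = 0.155) and under the permutation t-test, which also did not call Adig 39i13.

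The virgin glands also differed among themselves. Virgin glands 13 and 17 had the 2 lowest of the 5 values in 10 of the 19 clones, which was so for 27% of all clones, and this was noticed after the values were seen. For Cidea the 2 glands were at -0.62 and -0.28, against 0.71 to 1.38 in the other 3.

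Wnt-1 tumors were next set against Neu tumors, to ask which lipid storage genes differed between them. Oncogene, strain background and age range differed together between these tumors, so their parts cannot be told apart. Of 19 clones, 9 passed, 4 higher and 5 lower in Wnt-1 tumors, where 43.6% of all clones passed, 21.7% higher and 21.9% lower, so the share of members was close to that of all clones. Cd36 17g19, with the ranges given above, was 10.8-fold lower in Wnt-1 than in Neu tumors (-3.43 ± 0.38, adjusted p = 1.76e-09), and 16 of 23 Wnt-1 tumors lay below the lowest Neu tumor. Cd36 32o18 was 2.20-fold lower (-1.14 ± 0.13, adjusted p = 4.58e-09), with 22 of 23 Wnt-1 tumors below all Neu tumors. Scd1 30o4 was 4.73-fold lower (-2.24 ± 0.18, adjusted p = 1.41e-12), again with 22 of 23 below.

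Scd1 25m24 differed by 0.28 ± 0.28 between the same tumors (adjusted p = 0.438), so the clones of Scd1 disagree on how Wnt-1 and Neu tumors differ. Adig 2a4 was 2.32-fold lower in Wnt-1 tumors (-1.22 ± 0.27, adjusted p = 3.21e-04) and Adipoq 30a8 2.48-fold higher (1.31 ± 0.20, adjusted p = 1.80e-06), with 17 of 23 Wnt-1 tumors above every Neu tumor. The second Adig clone, 39i13, went the other way, 1.33-fold higher in Wnt-1 tumors (0.41 ± 0.16, adjusted p = 0.0375). The clones of Pnpla2 also passed in opposite directions, 26n4 higher by 0.31 and 3i13 lower by 0.39 log2 units. The permutation t-test called neither Adig 39i13 nor Pnpla2 3i13. Lpl 36p7 was 1.26-fold higher with an adjusted p of 0.0486 and lost its call under 3 alternatives. Fabp4, Cidea, Cidec and Gpd1 had no clone past the test, with differences from -0.20 to 0.50, although Gpd1 11h9 passed as higher in Wnt-1 tumors without the arrays of SD over 1.3 (0.34, adjusted p = 0.0426). Markers of other cell types also differed between Wnt-1 and Neu tumors. The luminal markers, with the ranges given above, did not overlap between Wnt-1 and Neu tumors, and 3 of the 5 were higher and 2 lower in Wnt-1 tumors. The mean of 5 myoepithelial markers ran from -0.32 to 0.99 in Wnt-1 tumors, against -2.05 to -0.67 in Neu tumors, with 4 of the 5 higher. Of the 10 endothelial genes 6 were higher and 1 lower, and of 7 macrophage genes 1 was higher and 1 lower. Their part in the differences of the lipid storage clones was not tested.

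Lung metastases of MMTV-Wnt-1 mice were compared with the primary Wnt-1 tumors. Of 19 clones, 4 passed, 3 higher and 1 lower in metastases, where 4.62% of all clones passed, 2.47% higher and 2.15% lower. Cd36 17g19 ran from -3.29 to -0.76 (median -1.85) in the 10 metastases, against -5.97 to -2.91 (median -4.57) in the 23 tumors. Of the 10 metastases, 9 lay above every tumor, and the level was 5.72-fold higher (2.52 ± 0.29, adjusted p = 2.41e-07). Scd1 30o4 was 2.72-fold higher (1.44 ± 0.21, adjusted p = 1.37e-05), from -2.03 to -0.29 in metastases, against -3.36 to -1.04 in tumors.

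Cd36 32o18 (0.44 ± 0.10, adjusted p = 0.0038) and Scd1 25m24 (-1.06 ± 0.29, adjusted p = 0.0284) lost their calls without the 5 metastasis and tumor arrays of SD over 1.3 (0.31, adjusted p = 0.157, and -0.93, adjusted p = 0.219). Scd1 25m24 also lost its call under quantile normalization (-0.42, adjusted p = 0.542) and under the permutation t-test. Cidec 22d4 was at -8.59 and -8.33 in metastases 52 and 50, both among those arrays, against a lowest tumor of -4.82, and its difference of -1.86 ± 0.57 missed the threshold (adjusted p = 0.0526). Lung transcripts moved with the metastases: the mean log2 ratio of 7 lung epithelial genes ran from -0.90 to 1.5 in Wnt-1 metastases, against -4.99 to -2.41 in Wnt-1 tumors, and 5 of the 7 rose. The mean of 10 capillary endothelial genes ran from -0.69 to -0.27 in metastases, against -1.20 to -0.53 in tumors, and 5 of the 10 rose. Of the macrophage genes, Adgre1 and Mrc1 were lower in metastases and none was higher. Among luminal and myoepithelial genes Krt19 was lower, and Muc1, Cnn1 and Mylk were higher. Their part in the Cd36 and Scd1 values was not tested.

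In the 3 Neu metastases 0 of 19 clones differed from Neu tumors by limma, where 0.195% of all clones passed. A single member (1 of 19) had an unadjusted p under 0.05, and the permutation t-test modelled on the study's called 0, where it called 0.345% of all clones. Cd36 17g19 was at -0.39, 0.78 and 0.86 in Neu metastases, against -3.94 to 0.60 in Neu tumors, a difference of 1.42 ± 0.83 (adjusted p = 0.822). The 2 tail-vein metastases gave -3.08 and -0.04. Whether metastases departed from their primary tumors differently under the 2 oncogenes was tested as an interaction in limma, and 0 of 19 clones passed (2 at an unadjusted p under 0.05), against 0.0651% of all clones.

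Wnt-1 metastases set against Neu metastases gave 2 clones higher and 2 lower of 19, where 15.2% of all clones passed, 7.13% higher and 8.07% lower. Cd36 17g19 (5.03-fold, adjusted p = 0.0026) and 32o18 (2.14-fold, adjusted p = 0.0012) were lower in Wnt-1 metastases, with all 10 below the 3 Neu metastases. Pnpla2 26n4 (1.5-fold) and Adig 39i13 (1.67-fold) were higher, and lost their calls without Neu metastasis 56 (adjusted p = 0.0523) and without Neu metastasis 61 (adjusted p = 0.0759), in that order. With the tail-vein metastases added, the difference of Cd36 17g19 was -1.54 (adjusted p = 0.0555). The luminal markers averaged 0.79 to 1.49 in Wnt-1 metastases, against -0.42 to -0.03 in Neu metastases, and the lung epithelial genes -0.90 to 1.5, against -1.40 to 0.53. Of the luminal genes, Krt19, Cdh1 and Muc1 were higher in Wnt-1 metastases and Cldn4 lower, and Cldn7 did not pass. Among lung genes Cyp2f2 was higher and Aqp5 lower, and the others did not pass. Among endothelial genes Cdh5, Tie1, Esam and Eng were higher, and the others did not pass. The myoepithelial genes Myh11, Cnn1, Mylk and Oxtr were higher, and Krt14 did not pass. Among macrophage genes Mrc1 was higher and Fcgr3 lower. Their part in these differences was not tested, and oncogene and strain background cannot be told apart here.

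**Figure D3:**
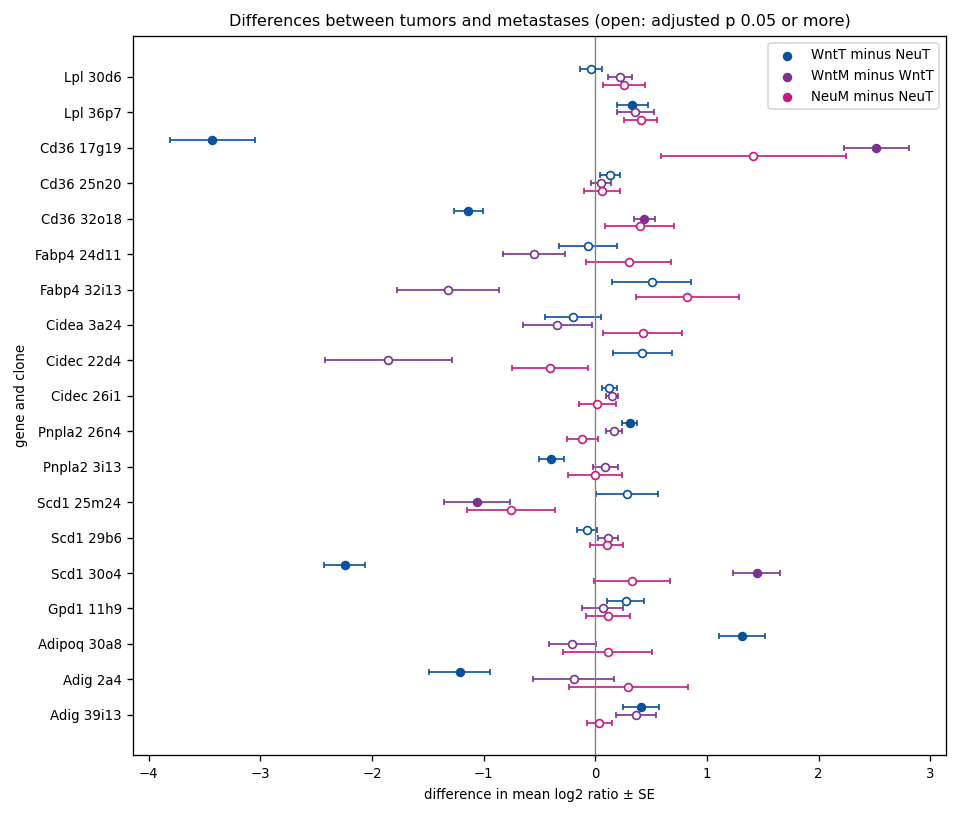
Difference in mean log2 ratio (horizontal axis, ± SE) of each clone between Wnt-1 and Neu tumors, between Wnt-1 metastases and Wnt-1 tumors, and between Neu metastases and Neu tumors; filled points passed limma's adjusted p of 0.05. Cd36 17g19 has the lowest point of the first comparison (-3.43) and the highest of the second (2.52), and no point of the third is filled.

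Loss of p53 was examined on the 8.7k arrays, where 6 of the 19 clones were spotted. None of the 6 passed between P53-/- and other Wnt-1 tumors by limma (0 of 6, where 0.442% of all clones passed). By an unadjusted p under 0.05 there was 1, and the permutation t-test modelled on the study's called 0, where it called 1.59% of all clones. That clone, Pnpla2 3i13, ran from -1.5 to -0.15 (median -1.16) in 6 P53-/- tumors, against -0.77 to 0.19 (median -0.45) in 10 other tumors, with 4 of 6 below all 10 (-0.66 ± 0.20, adjusted p = 0.114). The other 5 clones differed by -0.12 to -0.47. The intervals were wide: that of Gpd1 11h9 ran from -1.40 to 0.51. Ages of the 10 other tumors were not given apart from the remaining Wnt-1 tumors, and a part of age in this comparison was not tested.

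Tumors of 1 oncogene differed among themselves. WntT array 71 had the lowest of 23 values for 8 of the 19 clones and array 20 the highest for 8, and neither was among the arrays of large SD. How often these arrays were extreme over all clones was not computed, so this may not be particular to the members. Over the 23 Wnt-1 tumors, the median correlation between clones of different member genes was 0.226 (160 pairs), with 133 pairs above 0. It was 0.114 over the 12 Neu tumors and 0.0682 over the 10 Wnt-1 metastases. No such correlation was computed for pairs of other clones, so these values have no baseline.

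Likeness to the members was measured against the average of the 10 genes, each standardised over the arrays. Over the 65 arrays, the other clones closest to that average were Jcad (r = 0.980), Adal (0.973), Aoc3 (0.969), Pigl (0.969), Pym1 (0.966), Crat (0.965), Hdac4 (0.965) and Orai1 (0.964), of 11838 compared. Aoc3 encodes an amine oxidase abundant in adipocytes and Crat a mitochondrial carnitine acetyltransferase. Within the 23 Wnt-1 tumors the closest were Lrrc8c (0.834), Pigl (0.830), Rreb1 (0.828), Asap1 (0.818), AI451606 (0.813), Pcolce2 (0.811), Vac14 (0.810) and Smoc2 (0.801), so Pigl was the one gene on both lists. Among the members, Lpl 36p7 lay closest to the average over all arrays (0.983) and Cd36 25n20 farthest (-0.216). The members make up that average, so their correlations are not comparable with those of other clones. The correlations over the 65 arrays describe arrays that share groups.

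The wider pathway was read from 6 lists holding 54 measured genes besides the members, with the clones of a gene averaged. In Wnt-1 tumors 41 of 54 were lower and 2 higher than in virgin glands, where 26.5% of all genes were lower and 26% higher. In Neu tumors 34 were lower and 3 higher, where 28.8% of all genes were lower and 26.8% higher. In hyperplastic glands 33 were lower and 0 higher, where 14.3% of all genes were lower and 9.58% higher. The adipokines and other fat markers moved most often, with 9 of 9 lower in Wnt-1 tumors and 8 of 9 in Neu tumors. In fat 14 of 54 were higher and 0 lower than in virgin glands, where 4.3% of all genes were higher and 3.19% lower, and none of the 9 fatty acid synthesis genes was among them.

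Of these genes, Lep, the adipocyte hormone leptin, was 3.62-fold lower in Wnt-1 tumors (adjusted p = 3.31e-17), as were Acss2, which makes acetyl-CoA from acetate (11.1-fold), and Cav1, a caveolar coat protein of adipocytes and endothelium (11.1-fold). In Neu tumors Cav1 was 35.8-fold lower, Pparg, the nuclear receptor that drives adipocyte differentiation, 9.31-fold lower, and Dgat2, the last enzyme of triglyceride synthesis, 9.37-fold lower. In hyperplastic glands Mgll, the lipase that acts on monoglyceride, was 3.59-fold lower, Cav1 2.62-fold and Dgat2 2.47-fold. In fat Cebpa, a regulator of adipocyte genes, was 3.08-fold higher, Angptl4, an inhibitor of lipoprotein lipase, 2.47-fold higher and Retn, the hormone resistin, 3.53-fold higher.

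Between the kinds of tumor, which also differ in strain background, 20 of the 54 genes were lower and 8 higher in Wnt-1 than in Neu tumors. Of all genes, 23% were lower and 22.8% higher. The 3 with the smallest adjusted p were lower in Wnt-1 tumors and belong to fatty acid synthesis or its control: Elovl6, a fatty acid elongase (3.03-fold, adjusted p = 5.08e-17), Srebf1, a transcription factor of lipid synthesis (5.40-fold, adjusted p = 8.83e-16), and Slc25a1, the mitochondrial citrate carrier (2.10-fold, adjusted p = 5.82e-15). Srebf1 averaged 0.28 in Wnt-1 tumors and 2.71 in Neu tumors, against 0.31 in virgin glands. Slc25a1 averaged -0.39, 0.67 and -0.38 in the same order, and Elovl6 -0.17, 1.43 and 1.40. The rest of the fatty acid synthesis list was divided. Elovl5, Thrsp and Acss2 were also lower in Wnt-1 than in Neu tumors, whereas Acaca (1.16-fold) and Acly (1.17-fold) were higher. Fasn (limma adjusted p = 0.217) and Acacb did not pass.

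**Figure D4:**
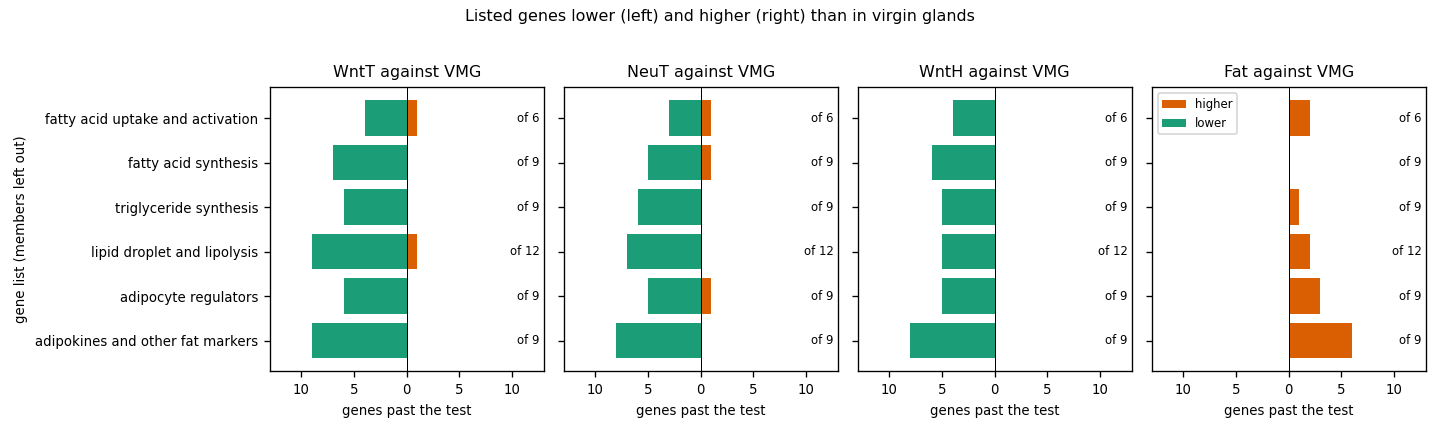
Number of listed genes, members left out, that passed limma's test as lower (bars to the left) or higher (bars to the right) than in virgin glands, for 6 lists and 4 groups; the number measured stands at the right of each bar. Bars to the left dominate in Wnt-1 tumors, Neu tumors and hyperplastic glands, and in fat there are bars to the right alone.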

How the data were processed

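The authors scanned the arrays, scored spot quality and normalized each array, and deposited log2 ratios of sample to reference RNA. Base 2 was tested on the values. Spot quality was not analysed here, so a clone was tested wherever 50% or more of each group's arrays (and 2 or more) held a value. Of 998400 values on the 15k arrays 8 were missing, and array medians ran from -0.144 to 0.0431. Precision is limited by how many arrays a group has. Symbols came from probe tables, and 11860 of 15360 carried a single symbol. A group of 3 samples hybridised to 8.7k arrays was left out. The files name no scan batch.

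Groups were compared 2 at a time in R 4.3.3 with limma 3.58.1 (lmFit, eBayes), with Benjamini-Hochberg adjustment over all clones and a threshold of 0.05, tested on simulated data. Folds are ratios of geometric means, and intervals are limma's 95% t intervals. Nothing in the labels says whether arrays of a group are separate animals, so p-values measure the spread between arrays. The labels do not say whether shared title numbers pair tumors and metastases (correlations of deviations -0.0668 to 0.285). The main tests treated the arrays as unpaired. Alternatives in normalization and fit were median centring, quantile normalization, 1 fit over all groups, and trend and robust eBayes. Others set ratios under 0.01 or over 100 missing, or kept clones without missing values. Further ones left out arrays of SD over 1.3 or each array of small groups, added tail-vein metastases, or used the title number as a block. A permutation t-test at P under 0.001, modelled on the study's, was also run. It used at most 100 regroupings, fewer than the study, and compared each clone with t values pooled over all clones. Named were all member clones, the 8 other clones closest to their average, and up to 3 listed genes of smallest adjusted p in 5 comparisons. The members and lists were chosen with earlier results of these data known. Scripts used pandas, numpy and matplotlib.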

Additional observations from a re-analysis of the deposited data

Results flagged for a closer look

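Of 69 combinations of a clone and a group of 4 to 10 arrays, 1 held an array far from the rest of its group, and chance alone puts about 1 in 20 there. It was Adig 2a4 in Wnt-1 metastasis 19, at -3.84, whereas the next lowest of the 10 metastases was at -1.42. The array is one of those with an SD over 1.3.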

How the results depend on the processing

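Counts of called member clones stayed within 1.5 times the reported count under all alternatives run except the following. In fat against virgin glands the count was 5 under quantile normalization (Adipoq 30a8, Fabp4 24d11 and Scd1 25m24 lost their calls), against 8, and ran from 4 to 10 with single fat or virgin arrays left out. In Wnt-1 metastases against Wnt-1 tumors it was 2 without arrays of SD over 1.3, against 4. In Wnt-1 against Neu metastases it was 7 with all groups in one fit, against 4 (Adig 2a4, Adipoq 30a8 and Scd1 30o4 gained calls), and 3 to 4 with a Neu metastasis left out. With single arrays left out, the counts were 15 to 15 in hyperplastic glands, 16 to 16 in Wnt-1 tumors and 16 to 17 in Neu tumors (each against virgin glands), 17 to 17 in fat against tumors, and 0 to 0 in Neu metastases against Neu tumors. Of 2366 clone values under the alternatives, 46 lost a call, 28 gained one and none that was called changed direction.

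Some metastases and tumors share a number in their array titles, and whether this marks the same mouse was not resolved. Correlations of deviations between same-numbered arrays ran from -0.0668 to 0.285. For number 50 the same-numbered tumor was the best match (0.224, against 0.214 for the best other). For every other shared number a differently numbered tumor matched better. The correlation within a block was 0.131 for the Wnt-1 comparison, 0.0508 for the Neu comparison and 0.13 for the interaction. With the number as a replicate block, Wnt-1 metastases against Wnt-1 tumors gave 5 calls, all 4 reported ones and Cidec 22d4, Neu metastases against Neu tumors gave 0, and the interaction gave 0. No paired analysis was possible for the other comparisons because their groups share no numbers.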
